A study of Mus musculus with 6 samples.

Results

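The sterol and fatty acid synthesis genes examined here are 33 mouse genes, chosen by name as enzymes and regulators of cholesterol and fatty acid synthesis. All 33 were found by gene symbol among the 11609 genes of the mRNA tables, and all 33 passed the filter on low values. They comprise 8 genes of the mevalonate stage, 12 of the stage from squalene to cholesterol, 5 of fatty acid synthesis, and 8 that control SREBP transcription factors or carry sterol. The cells were N2a, a mouse neuroblastoma line, of which all 6 libraries had been treated for 96 h with 10 µM retinoic acid in medium with 2% fetal bovine serum to induce a neuron-like form. In 3 libraries the cells had then received 5 µM RSL3 for 24 h, an inhibitor of the lipid peroxidase GPX4 that sets off ferroptosis, and in 3 libraries the solvent DMSO alone. Every group is thus 1 established cell line under retinoic acid, and the labels do not say whether the 3 libraries of a group are separate cultures, so the p-values measure the spread between these libraries, which may be technical.

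Cholesterol is built from acetyl-CoA in 2 legs. The mevalonate leg makes isoprenoid units, which also feed ubiquinone, dolichol and the modification of the selenocysteine tRNA that GPX4 synthesis needs. The sterol leg starts where squalene synthase commits these units to sterol. Near its end lies 7-dehydrocholesterol, which Sc5d forms and Dhcr7 reduces to cholesterol. It reacts readily with peroxyl radicals and, from work in other cells, is known to shield membranes from ferroptosis, and Dhcr7 is the enzyme that uses it up. Transcription of most of these genes is driven by SREBP factors, which SCAP escorts out of the endoplasmic reticulum when sterol is low and INSIG proteins hold back when sterol is high.

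Values are FPKM, fragment numbers scaled to transcript length and library size, which can be compared between genes because they are per length. Read depth is unknown. The libraries summed to between 200135 and 213765 FPKM with RSL3 and between 220605 and 225295 FPKM with DMSO. Of the neuronal and sympathoadrenal markers 12 of 12 were listed, with sums of 371 to 426 FPKM with RSL3 and 458 to 461 FPKM with DMSO. Their levels differed widely, from Th at 0.435 to 0.996 FPKM to Tubb3 at 113 to 117 FPKM over all libraries. Being listed does not by itself bear out the label of a neuron-like line, because 20 of 20 hepatocyte markers were listed too. A list of 20 hepatocyte markers summed to 21.2 to 35.7 FPKM with RSL3 and 80.9 to 118 FPKM with DMSO, and all 20 were lower in every RSL3 library than in any DMSO library. Of these markers Apoc3 was listed at 0 in RSL3 replicate 3. Liver cells express most of the sterol genes too, and the part of this difference in the results below was not tested. Of the other cell types 1 of 8 glial, 1 of 6 macrophage and 3 of 7 fibroblast or endothelial markers were listed, with sums of at most 5.59 FPKM in any library. The 2 lncRNAs Gm26917 and Gm42418 of the ribosomal RNA locus summed to 26639 to 33129 FPKM with RSL3 and 18793 to 22979 FPKM with DMSO. In bulk RNA, fewer cells of a type and less RNA per cell cannot be told apart.

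Transcripts of this pathway passed the test for RSL3 against DMSO at about the same share as all tested mRNAs. With 3 libraries per group, not passing does not show that a gene is unchanged. Of 33 members Insig1 rose, Acly fell, and the other 31 did not pass the test. The 2 calls are 6.06% of the members, and 676 of all 10590 tested mRNAs, 6.38%, had an adjusted p under 0.05 (limma, Benjamini-Hochberg). By direction the background was 2.46% higher and 3.92% lower (261 and 415 mRNAs; 350 and 329 with quantile normalization, 301 and 365 with median-ratio scaling). An unadjusted p under 0.05 was reached by 6 members and by 24.1% of all tested mRNAs. The RSL3 libraries were all above the DMSO libraries for 4 members, Insig1, Srebf1, Tm7sf2 and Lss, where the share over all tested mRNAs was 13.4%. They were all below for 3 members, Acly, Pmvk and Mbtps1, where that share was 19.6%. The differences ran from -0.29 to 0.48 on the log2(FPKM + 1) scale, with a median of 0.024 for the members and -0.031 for all tested mRNAs. The median size of the difference, regardless of sign, was 0.095 for the members and 0.135 for all tested mRNAs, while the median standard errors (SE) were 0.095 and 0.099. For all 33 members the 95% interval of the difference lay within -1 to 1, the bounds of a 2-fold change on this scale, and for 28 it lay within -0.5 to 0.5. The added 1 FPKM shrinks the differences of the lowest genes, so these bounds are loosest for members near 3 FPKM. Exons of 9 members share bases with another protein-coding gene, on the same strand for Fdps, Tm7sf2 and Mbtps2 and on the opposite strand for Fdft1, Lbr, Ggps1, Cyp51, Acss2 and Srebf1, and their values are uncertain to that extent.

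**Figure D1:**
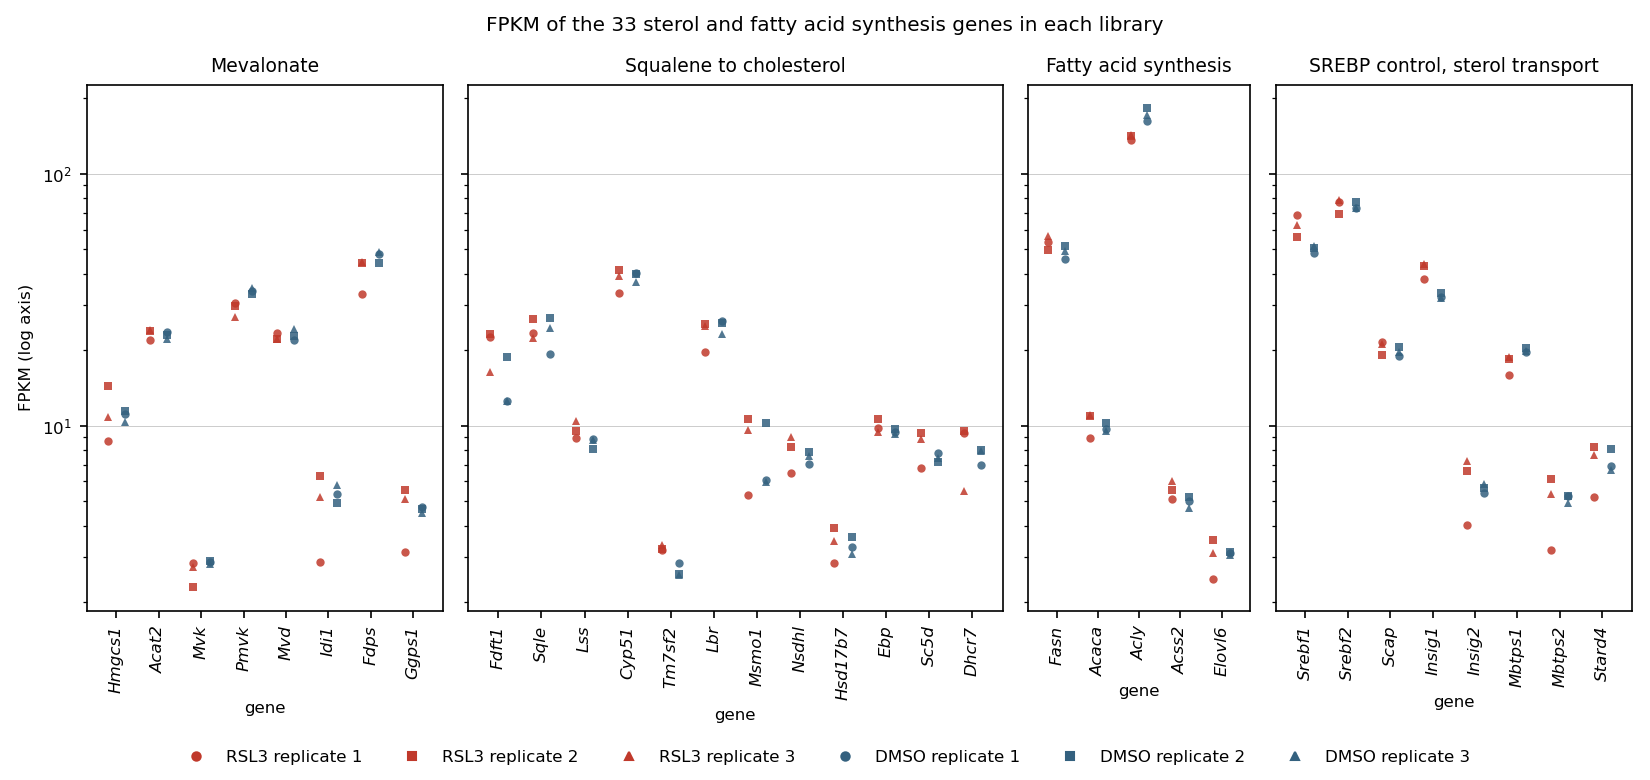
FPKM on a log axis of the 33 genes by stage, RSL3 libraries in red to the left of DMSO libraries in blue, with a marker shape per replicate. Acly stands highest and Mvk lowest, and for 26 of the genes the RSL3 and DMSO points overlap, with RSL3 replicate 1 lowest for many of the genes.

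**Figure D2:**
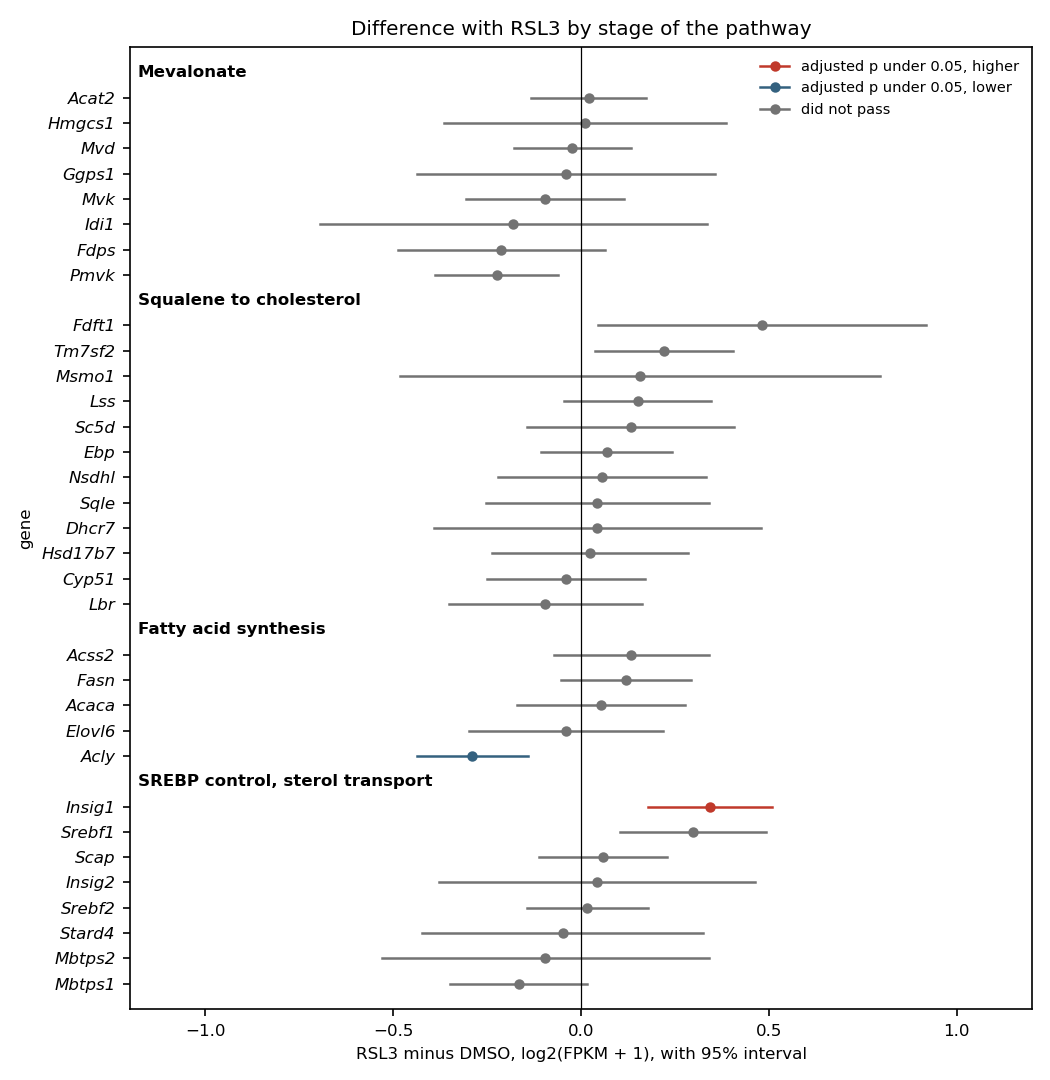
Difference of RSL3 minus DMSO in log2(FPKM + 1) for each gene by stage, with its 95% interval from the fit over all tested mRNAs. Insig1 at 0.34 and Acly at -0.29 are the genes that passed, and no interval reaches -1 or 1.

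Levels differed far more between genes than between groups. Acly was the most abundant member at 140 ± 3.69 FPKM with RSL3 and 171 ± 10.0 FPKM with DMSO (SD, n = 3 each). Srebf2, Srebf1, Fasn and Fdps followed, and Tm7sf2 and Mvk came last with group means between 2.63 and 3.27 FPKM. Summed over a stage, the mevalonate genes reached 139 ± 11.1 FPKM with RSL3 and 151 ± 3.29 FPKM with DMSO. The sums from squalene to cholesterol were 165 ± 15.3 FPKM with RSL3 and 156 ± 10.5 FPKM with DMSO. Fatty acid synthesis summed to 212 ± 6.54 FPKM with RSL3 and 238 ± 13.3 FPKM with DMSO, of which Acly makes up most. Control and transport genes summed to 235 ± 9.30 FPKM with RSL3 and 215 ± 5.86 FPKM with DMSO (SD, n = 3 each). Most of that gap lies in Srebf1, with means of 62.3 FPKM with RSL3 and 50.3 FPKM with DMSO, and Insig1, with 41.8 and 32.7 FPKM. Of these 8 genes 5 had a difference above 0 and 3 below.

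In the SREBP control group, Insig1 was the member that rose. Insig1 (ENSMUSG00000045294.11, chromosome 5, 28071363 to 28078662, plus strand, GRCm38) encodes the sterol-responsive protein that keeps SCAP in the endoplasmic reticulum, and it is itself an SREBP target. It stood at 38.3, 43.1 and 43.8 FPKM in RSL3 replicates 1, 2 and 3, against 32.4, 33.6 and 32.0 FPKM in DMSO replicates 1, 2 and 3. The groups did not overlap, and RSL3 replicate 1 was the nearest to the DMSO range. The difference was 0.34 ± 0.070 (SE) on the log2 scale (limma, adjusted p = 0.0347, higher in 3 of 3 RSL3 libraries), or 1.28-fold in mean FPKM. The call ended without RSL3 replicate 2 (adjusted p = 0.0628), RSL3 replicate 3 (0.121) or DMSO replicates 1, 2 and 3 (0.157, 0.122 and 0.145). It also ended without the variance trend (0.0534) and with the replicate block (0.0904). Of 14 alternative fits 7 kept the call, and over all 14 the difference ran from 0.31 to 0.42.

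Its paralog Insig2, which does the same task and is less bound to sterol supply, stood at 4.05, 6.62 and 7.27 FPKM with RSL3, and at 5.39, 5.65 and 5.84 FPKM with DMSO. The RSL3 libraries lay on both sides of the DMSO libraries (difference 0.043 ± 0.18 SE, 95% interval -0.38 to 0.46, adjusted p = 0.916). The ratio of Insig1 to Insig2 was 9.47, 6.51 and 6.03 in the RSL3 libraries and 6.01, 5.93 and 5.48 in the DMSO libraries. The 9.47 falls in RSL3 replicate 1, where Insig2 was lowest at 4.05 FPKM. Insig1 alone already has no overlap between the groups, so this is no separate result, and the ratio was not tested.

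The 2 genes of the SREBP factors themselves did not pass. Srebf1, which encodes the forms that favour fatty acid genes, stood at 68.3, 55.8 and 62.6 FPKM with RSL3, against 48.4, 50.9 and 51.6 FPKM with DMSO. Every RSL3 library was above every DMSO library, with a difference of 0.30 ± 0.083 (SE, adjusted p = 0.0783). It passed in 2 of 14 alternative fits. These were with the length and GC trends removed (0.21, adjusted p = 0.0384) and without RSL3 replicate 2 (0.37, adjusted p = 0.0334). Srebf2, which encodes the form that favours sterol genes, stood at 75.1 ± 5.17 FPKM with RSL3 and 74.1 ± 2.33 FPKM with DMSO (difference 0.017, adjusted p = 0.909). Their ratio, Srebf2 over Srebf1, was 1.13 to 1.26 in the RSL3 libraries and 1.41 to 1.51 in the DMSO libraries. Srebf1 alone already has no overlap between the groups, so this ratio is no separate result. The difference between the differences of these genes was not tested.

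The remaining control genes did not pass either. Scap, the escort and sterol sensor, stood at 20.5 ± 1.31 FPKM with RSL3 and 19.6 ± 0.795 FPKM with DMSO (adjusted p = 0.673). Mbtps1, the first of the proteases that release SREBP, stood at 15.9, 18.4 and 18.7 FPKM with RSL3, against 19.5, 20.4 and 19.8 FPKM with DMSO. Its groups did not overlap, and the difference of -0.17 ± 0.078 (SE) did not pass (adjusted p = 0.242). Mbtps2, the protease of the following cut, stood at 4.89 ± 1.51 FPKM with RSL3 and 5.14 ± 0.20 FPKM with DMSO (adjusted p = 0.801). Stard4, which carries sterol through the cytosol and is an SREBP target, stood at 7.04 ± 1.63 FPKM with RSL3 and 7.22 ± 0.74 FPKM with DMSO (adjusted p = 0.884; SD, n = 3).

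**Figure D3:**
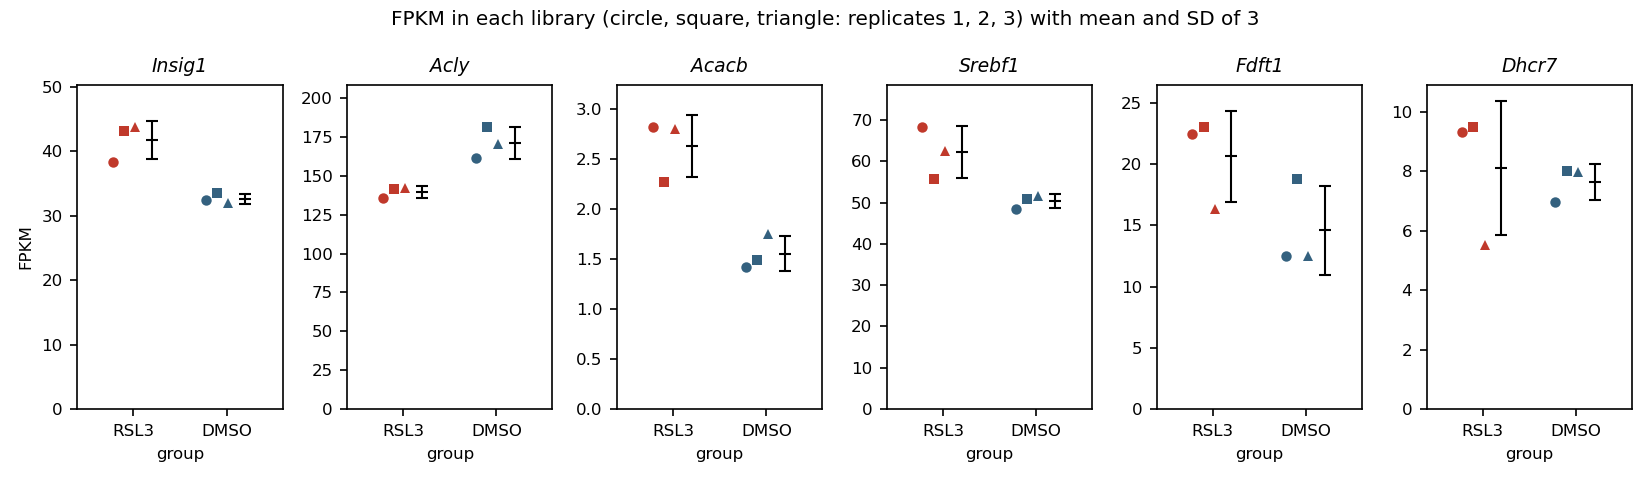
FPKM of 6 genes in each library, RSL3 left of DMSO, with the mean and SD of 3 libraries as a black error bar; the axes start at 0. Insig1, Acacb and Srebf1 are higher and Acly lower in every RSL3 library, while Fdft1 and Dhcr7 overlap between the groups.

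Among fatty acid synthesis genes Acly fell. Acly (ENSMUSG00000020917.17, chromosome 11, 100476353 to 100528000, minus strand) encodes ATP citrate lyase, which turns cytosolic citrate into the acetyl-CoA that both sterol and fatty acid synthesis start from. It stood at 135, 142 and 142 FPKM in RSL3 replicates 1, 2 and 3, against 161, 181 and 170 FPKM in DMSO replicates 1, 2 and 3. The RSL3 libraries lay close together and below all DMSO libraries, with 0.816 times the DMSO mean (difference -0.29 ± 0.063 SE, limma adjusted p = 0.0424). With quantile normalization the difference was -0.15 and did not pass (adjusted p = 0.214), nor did it with median-ratio scaling (0.0551), without the variance trend (0.0700) or with the replicate block (0.0964). It was also lost without RSL3 replicate 2 (0.0583), RSL3 replicate 3 (0.112) or DMSO replicates 1, 2 and 3 (0.102, 0.174 and 0.152). Of 14 alternative fits 5 kept the call, and over all 14 the difference ran from -0.33 to -0.15.

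Acss2 encodes the enzyme that makes the same acetyl-CoA from acetate. It stood at 5.57 ± 0.48 FPKM with RSL3 and 4.98 ± 0.25 FPKM with DMSO (difference 0.13, adjusted p = 0.403). The ratio of Acly to Acss2 was 23.5 to 26.6 in the RSL3 libraries and 32.2 to 36.1 in the DMSO libraries, with no overlap. Acly alone already has no overlap between the groups, so this is no separate result, and the ratio was not tested. Acaca, whose acetyl-CoA carboxylase makes the malonyl-CoA for chain building, stood at 10.3 ± 1.18 FPKM with RSL3 and 9.82 ± 0.41 FPKM with DMSO (adjusted p = 0.779). Fasn, the fatty acid synthase, stood at 53.7, 49.7 and 56.5 FPKM with RSL3 and at 45.9, 51.6 and 49.5 FPKM with DMSO. These groups overlapped, with a difference of 0.12 (95% interval -0.054 to 0.29, adjusted p = 0.373). Elovl6, which lengthens palmitate, stood at 3.03 ± 0.53 FPKM with RSL3 and 3.12 ± 0.04 FPKM with DMSO (adjusted p = 0.865; SD, n = 3).

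Of the 8 mevalonate genes 0 passed in limma and 1 had an unadjusted p under 0.05, with a median difference of -0.068. The shares over all tested mRNAs were 6.38% and 24.1%, with a median of -0.031. Acat2, which joins acetyl-CoA units at the entry, stood at 23.2 ± 1.099 FPKM with RSL3 and 22.8 ± 0.78 FPKM with DMSO (difference 0.020, 95% interval -0.13 to 0.17). Hmgcs1, the HMG-CoA synthase, stood at 8.65, 14.4 and 10.8 FPKM with RSL3, around 11.1, 11.4 and 10.4 FPKM with DMSO (adjusted p = 0.980). Its RSL3 libraries held both the lowest and the highest of the 6 values. The kinase gene Mvk stood at 2.63 ± 0.30 FPKM with RSL3 and 2.87 ± 0.04 FPKM with DMSO (adjusted p = 0.569).

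Pmvk, the phosphomevalonate kinase gene, was the mevalonate member whose groups did not overlap. It stood at 30.8, 29.9 and 26.9 FPKM with RSL3, against 34.2, 33.4 and 35.0 FPKM with DMSO (difference -0.23 ± 0.070 SE, adjusted p = 0.103). It passed in 2 of 14 alternative fits. These were with the length and GC trends removed (-0.29, adjusted p = 0.0353) and without RSL3 replicate 1 (-0.26, adjusted p = 0.0411). The decarboxylase gene Mvd stood at 22.5 ± 0.67 FPKM with RSL3 and 22.9 ± 1.22 FPKM with DMSO (adjusted p = 0.868). Idi1, which interconverts the isoprenoid units, stood at 2.89, 6.32 and 5.21 FPKM with RSL3 and 5.37, 4.91 and 5.82 FPKM with DMSO. Its low value in RSL3 replicate 1 gave an interval from -0.69 to 0.34 (adjusted p = 0.668).

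The prenyl chain synthases close this stage. Fdps makes farnesyl pyrophosphate, from which sterols, dolichol and ubiquinone branch. It stood at 33.3, 44.2 and 44.7 FPKM with RSL3 and 48.0, 44.3 and 48.7 FPKM with DMSO (difference -0.21, limma adjusted p = 0.317). RSL3 replicate 1 stood apart, RSL3 replicate 2 lay just below DMSO replicate 2, and RSL3 replicate 3 lay just above it. Part of the Fdps exons is shared with the annotated gene Gm43738 on the same strand. Ggps1, which adds a further unit for geranylgeranylation, stood at 4.61 ± 1.28 FPKM with RSL3 and 4.66 ± 0.14 FPKM with DMSO (adjusted p = 0.916; SD, n = 3).

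Of the 12 genes from squalene to cholesterol 0 passed in limma and 2 had an unadjusted p under 0.05, with a median difference of 0.062. Over all tested mRNAs 6.38% passed, 24.1% had an unadjusted p under 0.05, and the median was -0.031. Fdft1, the squalene synthase gene that commits farnesyl pyrophosphate to sterol, had the largest difference among the members at 0.48 ± 0.19 (SE, 95% interval 0.046 to 0.92, adjusted p = 0.168). It stood at 22.5, 23.0 and 16.4 FPKM with RSL3, against 12.5, 18.8 and 12.5 FPKM with DMSO, and DMSO replicate 2 lay above RSL3 replicate 3. Its exons share 774 bases with Ctsb on the opposite strand, and nothing in the sources says whether reads were counted by strand. Sqle, the squalene epoxidase gene, stood at 23.95 ± 2.23 FPKM with RSL3 and 23.4 ± 3.81 FPKM with DMSO (adjusted p = 0.873). Lss, which closes the sterol rings, stood at 8.90, 9.54 and 10.4 FPKM with RSL3, just above 8.84, 8.04 and 8.77 FPKM with DMSO (difference 0.15, adjusted p = 0.317).

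The demethylation steps that follow gave differences between -0.095 and 0.22. Cyp51, the lanosterol demethylase gene, stood at 38.1 ± 4.17 FPKM with RSL3 and 39.1 ± 1.76 FPKM with DMSO (adjusted p = 0.830). The sterol reductase that acts after it is encoded by Tm7sf2 and by Lbr, which is also a receptor of the nuclear lamina. Tm7sf2 stood at 3.21, 3.24 and 3.34 FPKM with RSL3, against 2.84, 2.59 and 2.56 FPKM with DMSO, with no overlap (difference 0.22 ± 0.078 SE, adjusted p = 0.139). Lbr stood at 23.3 ± 3.26 FPKM with RSL3 and 24.8 ± 1.52 FPKM with DMSO (adjusted p = 0.645). Lbr exceeded Tm7sf2 by 6.08 to 7.84 times in the RSL3 libraries and by 9.0 to 9.83 times in the DMSO libraries, a ratio that was not tested. Tm7sf2 alone already has no overlap between the groups, so this ratio is no separate result.

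Msmo1, the sterol methyl oxidase gene, varied within both groups, at 5.29, 10.6 and 9.58 FPKM with RSL3 and 6.10, 10.2 and 5.995 FPKM with DMSO (95% interval -0.48 to 0.80). In DMSO replicate 2 it was high, as were Fdft1 and Sqle in that library. Nsdhl, which acts with it on the same methyl groups, stood at 7.89 ± 1.29 FPKM with RSL3 and 7.49 ± 0.40 FPKM with DMSO (adjusted p = 0.816). Hsd17b7, their partner reductase, stood at 3.42 ± 0.54 FPKM with RSL3 and 3.33 ± 0.26 FPKM with DMSO (adjusted p = 0.926; SD, n = 3).

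The last enzymes, which set 7-dehydrocholesterol, showed no change that passed. Ebp, the isomerase gene, stood at 9.95 ± 0.62 FPKM with RSL3 and 9.44 ± 0.21 FPKM with DMSO (difference 0.068, adjusted p = 0.632). Sc5d, the desaturase gene that forms 7-dehydrocholesterol, stood at 6.79, 9.36 and 8.87 FPKM with RSL3 and 7.79, 7.199 and 7.41 FPKM with DMSO. RSL3 replicate 1 was the lowest of the 6 libraries and the other RSL3 libraries the highest (difference 0.13 ± 0.12 SE, adjusted p = 0.547). Dhcr7 (ENSMUSG00000058454.15, chromosome 7, 143823145 to 143848410, plus strand) encodes the reductase that consumes 7-dehydrocholesterol. It stood at 9.31, 9.49 and 5.50 FPKM in RSL3 replicates 1, 2 and 3, against 6.95, 8.02 and 7.96 FPKM in DMSO replicates 1, 2 and 3. The RSL3 libraries fell on either side of all DMSO libraries, 2 above and replicate 3 below. The difference was 0.043 ± 0.19 (SE, adjusted p = 0.918), with a 95% interval from -0.39 to 0.48. Without RSL3 replicate 3 it was 0.27 (adjusted p = 0.211), and without RSL3 replicates 1 or 2 it was -0.064 and -0.076. The libraries thus set no direction for Dhcr7.

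RSL3 replicate 1 stood apart from the other RSL3 libraries over all tested mRNAs, and in this pathway too. It held the lowest of the 6 values for 18 of 33 members (54.5%), where 41.9% of all tested mRNAs were lowest there. The median of the members, relative to the DMSO mean, was -0.13, 0.14 and 0.067 in RSL3 replicates 1, 2 and 3, against -0.098, 0.006 and 0.010 for all tested mRNAs. The gap between replicate 1 and the mean of the others ran from -0.82 for Msmo1 and -0.80 for Idi1 to 0.21 for Srebf1 and 0.32 for Dhcr7. Over the 33 members it went with transcript GC content, which spans 40.8% to 59.8% (Pearson r = 0.818; r = 0.646 over 10578 tested mRNAs). This describes 1 set of libraries, in which all genes share their depth and preparation. Without RSL3 replicate 1 the median difference was 0.11 for the members and 0.010 for all tested mRNAs, and Insig1 rose while Acly and Pmvk fell. The part of this library's spread in the differences of the members was not tested.

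**Figure D4:**
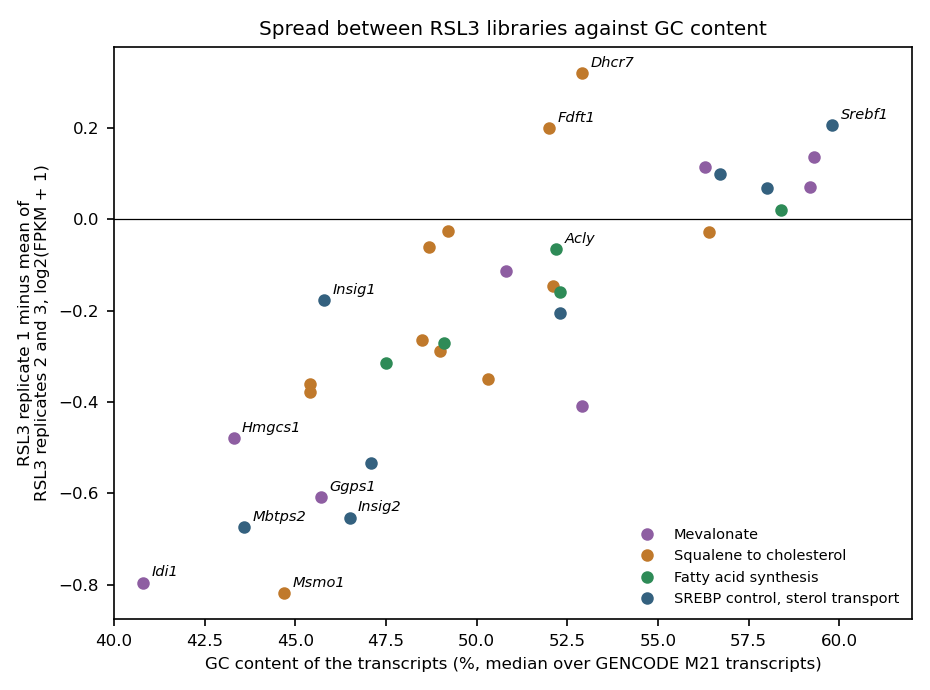
For each of the 33 genes, coloured by stage, log2(FPKM + 1) in RSL3 replicate 1 minus the mean of RSL3 replicates 2 and 3, against the GC content of its transcripts in percent. Low-GC genes such as Idi1 and Msmo1 lie near -0.8, and Srebf1, the gene of highest GC, lies at 0.21.

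Promoter sequence was read for 3 short motifs. RefSeq promoter windows on GRCm38.p6, from 250 bases before to 50 after a start, were matched for 29 of 33 members. Fdps, Fdft1, Sqle and Stard4 had no window and are in none of the shares below. The NF-Y box CCAAT, on either strand, was found in windows of 23 of these 29 genes (79.3%), against 41.1% of all genes in the table. The Sp1 box GGGCGG was found in 23 of 29 (79.3%), against 38.2%. A strict SREBP site, TCACNCCAC on either strand, was found in 1 of 29, Hmgcs1, against 1.44% of all genes. These shares are over genes, which can have several windows, and a match is a run of letters and not a measured site. The 27025 genes compared are more than the 11609 listed mRNAs and were not matched to the members in expression or GC content. Whether the members differ from matched genes was not tested. Below are bases upstream of the start for Insig1 and Acly, the genes that passed, and for Hmgcs1, the gene with the strict SREBP site. The Acly and Hmgcs1 stretches run from -230 to -1, 230 bases each. The Insig1 stretch is shorter, 181 bases from -230 to -50, so its motif counts are not on the same length. Each reads 5′ to 3′ along the gene's strand, with the 3 motifs in capitals in either orientation and no base shared between motifs.
Insig1: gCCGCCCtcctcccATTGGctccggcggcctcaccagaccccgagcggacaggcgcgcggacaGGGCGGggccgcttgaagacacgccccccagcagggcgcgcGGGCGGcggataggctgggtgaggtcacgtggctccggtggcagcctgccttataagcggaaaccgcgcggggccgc
Acly: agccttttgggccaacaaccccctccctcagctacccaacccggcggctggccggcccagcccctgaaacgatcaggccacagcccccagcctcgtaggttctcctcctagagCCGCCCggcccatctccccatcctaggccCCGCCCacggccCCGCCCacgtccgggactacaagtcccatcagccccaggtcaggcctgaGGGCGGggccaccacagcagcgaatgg
Hmgcs1: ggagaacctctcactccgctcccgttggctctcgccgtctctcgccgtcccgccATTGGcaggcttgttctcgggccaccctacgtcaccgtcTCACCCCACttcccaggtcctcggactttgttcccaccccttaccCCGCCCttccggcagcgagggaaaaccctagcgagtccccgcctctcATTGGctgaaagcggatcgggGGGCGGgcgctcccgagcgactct

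The Insig1 stretch (chr5:28071182-28071362, plus strand) holds 1 CCAAT box in reverse and 3 GGGCGG boxes. The Acly stretch (chr11:100528001-100528230, minus strand) holds 4 GGGCGG boxes and no CCAAT box. Acly is still among the 23 genes with a CCAAT box in a window, from bases that are not shown here. The Hmgcs1 stretch (chr13:119690121-119690350, plus strand) holds the SREBP site from -137 to -129, with 2 CCAAT boxes in reverse and 2 GGGCGG boxes. Among these genes, Insig1 rose, Acly fell, and Hmgcs1 had a difference of 0.011 that did not pass. Whether the motifs go with the differences was not tested.

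Genes around the pathway gave 1 further call. Of 16 tested genes for fatty acid precursors and elongation, 1 rose and 0 fell, where the shares over all tested mRNAs were 2.46% and 3.92%. The median was -0.014, against -0.031 for all tested mRNAs. The gene that rose was Acacb, whose acetyl-CoA carboxylase makes the malonyl-CoA that limits fatty acid oxidation. It stood at 2.82, 2.27 and 2.80 FPKM with RSL3, against 1.42, 1.49 and 1.75 FPKM with DMSO, with no overlap (difference 0.51 ± 0.099 SE, adjusted p = 0.0293). The call was kept in 8 of 13 alternative fits. It ended without RSL3 replicate 3 (0.109), without DMSO replicates 1, 2 or 3 (0.140, 0.133 and 0.0781) and with the replicate block (0.0791). Its level is low, and the stricter filter of 5 FPKM left Acacb out. Of 17 tested genes of the isoprenoid branches, 0 passed and 4 had an unadjusted p under 0.05, with a median of 0.019. Of 12 tested partners of sterol sensing, which hold or degrade pathway proteins, 0 passed and 0 had an unadjusted p under 0.05 (median -0.034). Of 17 tested genes for sterol movement and storage, 0 passed in limma and 7 had an unadjusted p under 0.05, with a median of 0.13. Over all tested mRNAs 24.1% had an unadjusted p under 0.05.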

How the data were processed

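RNA was sequenced from 6 libraries of retinoic acid-treated N2a cells, 3 with RSL3 and 3 with DMSO. The mRNA and lncRNA values are FPKM, deposited by the authors; cutadapt, HISAT2 and StringTie 1.3.3, with GRCm38 as the build, are listed without roles in the submitters' processing notes. Per the labels, libraries came from a stranded kit after a poly(A) module. No source used here gives the annotation release, strand setting or filters. The circRNA signal carries a CPM heading per the file headers and was described only. Read depth is unknown, so no counting interval is given.

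Differences of RSL3 minus DMSO came from limma (version 3.58.1, in R version 4.3.3), fitted two-sided and with the variance as a trend of the level, on log2(FPKM + 1). The 10590 mRNAs that reached 1 FPKM in 3 or more libraries entered, with Benjamini-Hochberg adjustment over all of them and a threshold of 0.05. The code was tested on simulated data. Gene positions, overlaps, transcript length and GC came from GENCODE M21, in which 11595 of 11609 genes were found, and promoters from RefSeq. Same-numbered libraries deviated from their group means with correlations of -0.145, 0.049 and -0.062, and no pairing was taken from them. The members and lists were chosen with earlier results of these data known. All members are named, those that passed and Dhcr7 in full, and from each other list up to 3 genes that passed; values in every library were added, after the values were seen, where groups did not overlap or libraries differed widely.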

Additional observations from a re-analysis of the deposited data

How the results depend on the processing

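With the replicate block, 88 mRNAs were higher and 165 lower with RSL3, and 0 members passed in either direction; without the variance trend 0 members passed as well. With the length and GC trends removed, 441 mRNAs were higher and 828 lower, and 2 members were higher (Insig1 and Srebf1) and 2 lower (Acly and Pmvk). With median-ratio scaling and with quantile normalization 0 members were lower, and the median of all tested mRNAs was 0 and 0.001. Against 261 higher and 415 lower as reported, scaling gave 301 higher and 365 lower with median ratios, and 350 and 329 with quantiles. With 1 library left out, between 47 and 541 mRNAs were higher and between 97 and 758 lower, the most without RSL3 replicate 1, and between 0 and 1 members were higher and 0 and 2 lower. The 2 calls were both kept in 1 of these 6 fits, without RSL3 replicate 1. The causes were not tested.

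For 17 members that did not pass, the sign of the difference changed under at least 1 of 14 alternatives, or of 13 for Ggps1, Hsd17b7 and Elovl6, which the stricter filter left out. Over the fits without single libraries the log2 differences ran from -0.17 to 0.17 for Hmgcs1, -0.0036 to 0.058 for Acat2, -0.057 to 0.016 for Mvd, -0.37 to 0.085 for Idi1, -0.17 to 0.16 for Ggps1, -0.087 to 0.14 for Sqle, -0.1 to 0.048 for Cyp51, -0.16 to 0.021 for Lbr and -0.013 to 0.43 for Msmo1. They ran from -0.033 to 0.18 for Nsdhl, -0.056 to 0.12 for Hsd17b7, -0.076 to 0.27 for Dhcr7, -0.13 to 0.065 for Elovl6, -0.017 to 0.075 for Srebf2, -0.095 to 0.26 for Insig2, -0.25 to 0.13 for Mbtps2 and -0.16 to 0.13 for Stard4. Mvd was at 0.012 with median-ratio scaling and 0.032 with quantile normalization, and Cyp51 at 0.036 with quantile normalization. With the trends removed, Ggps1 was at 0.03, Cyp51 at 0.016, Srebf2 at -0.088 and Stard4 at 0.0054.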

Other observations

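Of 17 tested genes for sterol movement and storage 0 passed in limma, and the 5 named here were chosen after their values were seen. Npc1 and Npc2, which release cholesterol from lysosomes, stood at 13.0, 12.9 and 13.6 FPKM and at 26.8, 27.8 and 28.2 FPKM with RSL3, against 10.6, 11 and 10.6 FPKM and 23.4, 23.5 and 22.2 FPKM with DMSO. Their differences were 0.27 and 0.25 on the log2 scale (limma, adjusted p = 0.0540 for each). Lipa, the lysosomal acid lipase gene, stood at 4.30, 5.60 and 5.13 FPKM with RSL3 and 3.23, 3.90 and 3.39 FPKM with DMSO (adjusted p = 0.0728). Abca1, which exports sterol, stood at 11.5, 15.2 and 15.6 FPKM with RSL3 and 9.78, 10.6 and 9.99 FPKM with DMSO (adjusted p = 0.0773). Osbp, an oxysterol-binding protein gene, stood the other way, at 21.9, 23.0 and 23.4 FPKM with RSL3 and 26.4, 27.3 and 26.0 FPKM with DMSO (difference -0.215, adjusted p = 0.0827). Every RSL3 library was above every DMSO library for 6 of the 17 genes, against 13.4% of all tested mRNAs, and below for 1, against 19.6%. In the other 10 the groups overlapped.

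Among 1414 circRNAs named by coordinates, 10 lay inside 6 of the member genes on their strand: 4 in Mbtps1, 2 in Srebf2 and 1 each in Acaca, Acly, Lbr and Mvd. Of these 10, 7 were seen in 1 library each and 2 in 2 libraries. The most widely seen was in Srebf2 (chromosome 15, 82175097 to 82203296, plus strand), present in 2 RSL3 and 2 DMSO libraries. No comparison of these circRNAs was made.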
